A study of Mus musculus with 18 samples.

Results

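Sjögren's disease of the lacrimal gland (LG) can be followed in male NOR/LtJ mice, whose exorbital LGs were profiled by bulk RNA-seq beside those of male BALB/cJ control mice. The results here cover the genes of TNF superfamily and NF-kB signalling, chosen by gene symbol. The symbols taken were the numbered Tnfsf, Tnfrsf, Tnfaip and Traf genes, the Nfkb genes, and Tnf, Rel, Rela, Relb, Ltbr, Fas, Ikbkb, Ikbke, Chuk, Birc2 and Birc3. The BAFF and APRIL ligands (Tnfsf13, Tnfsf13b) and their receptors (Tnfrsf13b, Tnfrsf13c, Tnfrsf17) were not counted among them. This gave 60 of the 23337 genes in the table of counts. There were 6 groups of 3 libraries: NOR at 3, 8 and 16 weeks, and BALB/c at 3, 8 and 16 weeks. Libraries of 8 and 16 weeks combined RNA of 2 to 3 mice of 1 strain and age, while no pooling was stated for 3 weeks, so age and pooling cannot be told apart. The sample titles of the diseased strain read NOD, whereas their genotype label reads NOR/LtJ, and they were taken as NOR.

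Ligands of the TNF superfamily are trimeric proteins, made largely by leukocytes, that bind receptors of the matching family on neighbouring cells. The receptors recruit TRAF adaptors and the ubiquitin ligases cIAP1 and cIAP2, and the signal reaches the kinases that release NF-kB dimers from inhibitory IkB proteins. In the canonical branch these dimers hold RelA or c-Rel with p50, and in the noncanonical branch they hold RelB with p52, the product of Nfkb2. Several inhibitors, among them IkB-alpha and A20, are themselves induced by NF-kB, and lymphotoxin signalling through this pathway organises lymphoid tissue, including the lymphocyte aggregates of inflamed exocrine glands.

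Levels are given as CPM, the count of a gene in a library scaled by TMM to a total common to all libraries. Total counts ranged from 6378613 to 20493076 per library, with a median of 15202570. A count of 3 was equal to 0.118 CPM in the NOR library of 16 weeks with the highest scaled total (replicate 2) and to 0.527 CPM in the shallowest library (NOR of 3 weeks, replicate 3). Of the 60 genes, 54 passed the low-count filter and were tested among 13376 genes. Tests were edgeR's quasi-likelihood tests with Benjamini-Hochberg adjustment over all genes tested, and differentially expressed genes (DEGs) met 2 conditions, an adjusted p no higher than 0.05 and a log2 fold-change of 1 or more in either direction. Adjusted p-values measure a difference against the spread between these libraries. For a single gene, an exact permutation of 3 against 3 libraries cannot give a p below 0.1.

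Several libraries stood apart from their groups. The summed level of 5 parotid gland transcripts, with Bpifa2 the most abundant, was 60.3, 54793 and 55194 CPM in the NOR LGs of 3 weeks and 1.26, 11939 and 1.77 CPM in the BALB/c LGs of that age. It was 2995, 14725 and 2062 CPM in NOR and 1635, 451 and 52.2 CPM in BALB/c LGs of 8 weeks, and 27.8, 3987 and 4.57 CPM against 9.36, 6209 and 309.7 CPM at 16 weeks. The replicates with high parotid levels were thus found in both strains, but not evenly. At 3 weeks the mean of the NOR group was 36683 CPM, while BALB/c LGs averaged 3981 CPM. The NOR mean was also the higher one at 8 weeks (6594 against 713 CPM), and the lower one at 16 weeks (1340 against 2176 CPM). The part of parotid transcripts in the strain differences, or in their absence at 3 weeks, was not tested. Among the 16-week BALB/c LGs, replicate 3 had a summed B cell marker level of 5.19 CPM against 0.760 and 0.457 CPM in the others. Among the NOR LGs of 16 weeks, replicate 1 had the lowest and replicate 2 the highest level of T cell, B cell and macrophage markers.

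At 3 weeks NOR and BALB/c LGs differed by 0 DEGs among the 54 members tested, where 3.54% of all genes tested were higher and 1.71% lower in NOR. Without the fold-change cutoff, 2 members were higher (7.95% of all genes) and 1 was lower (7.03%). An unadjusted p under 0.05 was reached by 11 members and by 3624 of all genes tested. With DESeq2 in place of edgeR, 1 member was called, Nfkbie, which was lower in NOR, and 9 had an unadjusted p under 0.05. The median log2 fold-change of the members was −0.05, against 0.01 for all genes tested. At 8 weeks, 15 of 54 members were upregulated in NOR LGs, against 8.93% of all genes tested, and 0 were downregulated, against 2.65%. DESeq2 likewise called 0 members lower at this age, and 29 members and 5069 of all genes tested had an unadjusted p under 0.05 in either direction. At any fold, 21 members were higher (16.4% of all genes) and 1 was lower (11.4%). The median was 0.49, against 0.02 for all genes. By 16 weeks, 24 members were upregulated (14.1% of all genes tested) and 2 downregulated (5.22%). At any fold, 34 members were higher (25.5% of all genes) and 6 were lower (25.4%). The median was 0.71, against −0.01 for all genes. The filter keeps a gene whose counts suffice in any 1 group, so members with few counts in BALB/c LGs entered the test through the NOR libraries of 16 weeks. Listed genes with few BALB/c counts, among them lymphoid genes and markers of T and B cells, entered through NOR libraries too. In bulk RNA, a change in the number of cells that express a gene and a change of RNA per cell cannot be told apart.

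**Figure D1:**
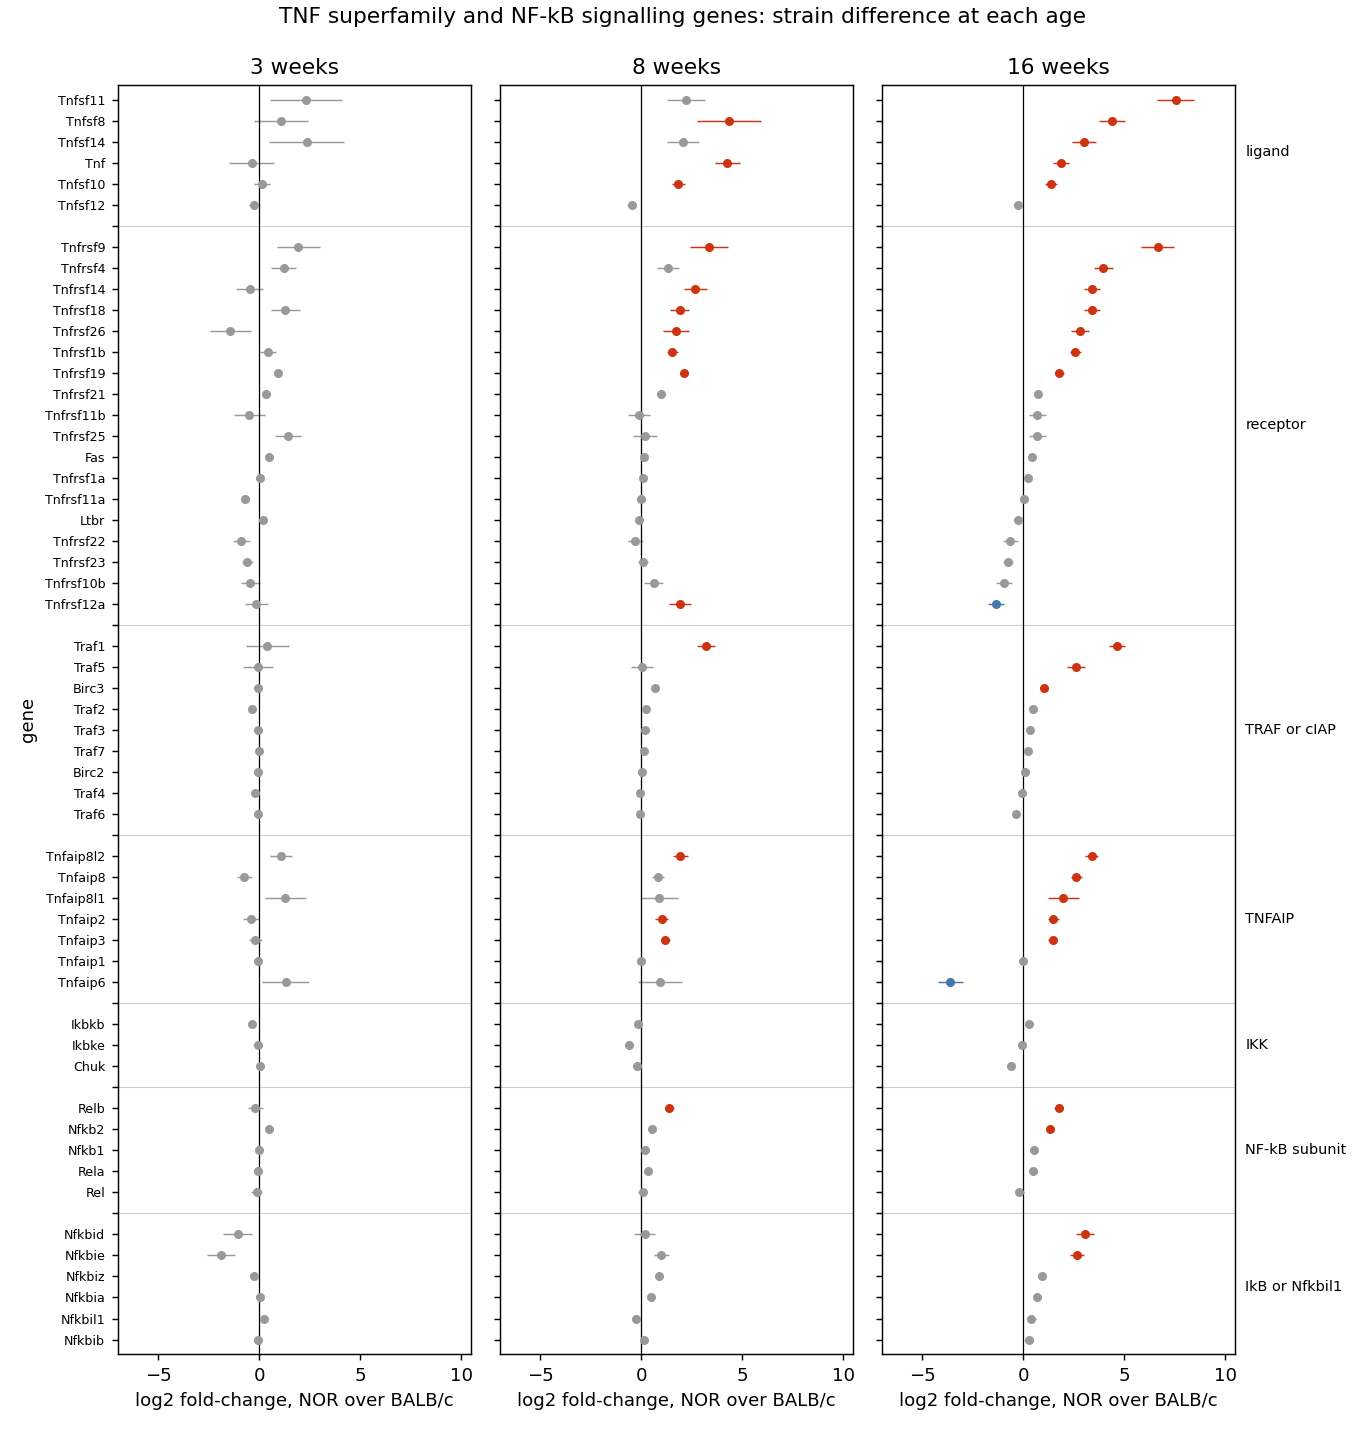
Log2 fold-change of NOR over BALB/c LGs for the 54 genes tested, by role and age, with bars of 1 SE (standard error). Red points are upregulated and blue points downregulated DEGs; the fitted values of genes with 0 counts in a group depend on a prior count.

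The 3 members that passed the test at 3 weeks without the fold-change cutoff were receptors. Tnfrsf19, a receptor of the ectodermal lineage also called TROY, had 15, 12.6 and 13.4 CPM in NOR LGs of 3 weeks and 5.47, 8.31 and 8.16 CPM in BALB/c LGs. All 3 NOR libraries lay above the BALB/c libraries. Its log2 fold-change was 0.92 (standard error, SE, 0.186, adjusted p = 0.00181), short of the fold-change cutoff. At 8 weeks its levels were 12.3, 9.29 and 15.6 CPM in NOR against 2.99, 2.73 and 2.76 CPM in BALB/c LGs (log2 fold-change 2.13, SE 0.202, adjusted p = 2.64e-07). At 16 weeks they were 7.45, 6.15 and 6.80 CPM against 2.28, 2.13 and 1.49 CPM (log2 fold-change 1.79, SE 0.216, adjusted p = 1.72e-06). NOR LGs thus lay above BALB/c LGs with no overlap at any of the 3 ages. Tnfrsf21 (death receptor 6) was above BALB/c by log2 values of 0.36, 0.98 and 0.75 at 3, 8 and 16 weeks (adjusted p = 0.0382, 6.13e-06 and 3.22e-05), all short of the fold-change cutoff. Tnfrsf11a, the receptor RANK, was lower in NOR LGs at 3 weeks, by a log2 fold-change of −0.69 (SE 0.196, adjusted p = 0.0208), and had 0.04 at 16 weeks (adjusted p = 0.869). The adjusted p of Tnfrsf21 and of Tnfrsf11a at 3 weeks rose past 0.05 without BALB/c replicate 2 (0.166 and 0.0761, with log2 fold-changes of 0.26 and −0.59), BALB/c replicate 3 (0.0619 and 0.0857), NOR replicate 1 (0.0743 and 0.0575), NOR replicate 2 (0.0544 and 0.0594) or NOR replicate 3 (0.138 and 0.0562). A fit of only the groups compared also ended both results, and DESeq2 that of Tnfrsf21.

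Nfkbie, which encodes the inhibitor IkB-epsilon, had 0.214, 0.190 and 0.351 CPM in NOR LGs of 3 weeks against 0.602, 1.21 and 0.949 CPM in BALB/c LGs. All 3 NOR libraries were below the BALB/c libraries, with a log2 fold-change of −1.91 (SE 0.689) and an adjusted p of 0.0729. The counts behind these levels were 3, 2 and 2 in NOR and 11, 15 and 15 in BALB/c LGs. Tnf itself had 0.143, 0.0950 and 0 CPM in NOR and 0.164, 0.161 and 0.0633 CPM in BALB/c LGs of 3 weeks, 3 against 6 counts, too few to show a difference at this depth.

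Among the 10 ligands, 6 were tested. Of these, 3 were upregulated at 8 weeks and 5 at 16 weeks, and 0 were downregulated at either age. Their median log2 fold-change was 2.14 at 8 weeks, or 1.95 with a gene at 0 counts set to its bound, and 2.45 at 16 weeks. Of all genes tested, 8.93% were upregulated and 2.65% downregulated at 8 weeks, and 14.1% and 5.22% at 16 weeks. Tnf, Tnfsf8, Tnfsf11 and Tnfsf14 entered the test through NOR libraries. How many of the ligands tested were called, and their median, were thus fixed in part by the filter. Tnf (chr17:35199391-35201996 of mm10, minus strand), the cytokine that names the family, had 2.76, 2.35 and 1.82 CPM in NOR LGs of 8 weeks and 0.0786, 0.210 and 0.0564 CPM in BALB/c LGs. Each NOR library was far above the BALB/c libraries, and the log2 fold-change was 4.27 (SE 0.605, adjusted p = 3.04e-05). At 16 weeks the NOR LGs had 2.83, 4.51 and 2.98 CPM and the BALB/c LGs 0.332, 0.685 and 1.78 CPM. The groups again did not overlap, with BALB/c replicate 3 nearest to NOR. The log2 fold-change was then 1.87 (SE 0.403, adjusted p = 0.000738), and 2.84 without that BALB/c library. Tnfsf10 encodes TRAIL, a ligand of death receptors. It had 14.4, 11.8 and 8.87 CPM in NOR against 3.69, 3.29 and 2.88 CPM in BALB/c LGs of 8 weeks (log2 fold-change 1.84, SE 0.330, adjusted p = 0.000305). At 16 weeks the levels were 9.87, 19.1 and 13.6 CPM against 3.04, 3.80 and 9.41 CPM. BALB/c replicate 3 lay just under the lowest NOR library. The log2 fold-change was 1.38 (SE 0.302, adjusted p = 0.000855), and 2.09 without that library.

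Of the other ligands, Tnfsf11 (chr14:78277446-78308043, minus strand) encodes RANKL, the ligand of RANK. It had 1.24, 1.76 and 1.49 CPM in NOR LGs of 16 weeks and 0 counts in all 3 BALB/c libraries. With 77 counts in NOR, it was at least 28.6-fold higher, against a floor of 3 counts over the group (adjusted p = 8.6e-06). At 8 weeks the counts of Tnfsf11 were 12 against 2, a ratio of 5.35 (95% interval 1.19 to 49.2, adjusted p = 0.0945). Such floors and intervals cover counting error only, not the spread between libraries. Tnfsf8 (chr4:63832824-63861284, minus strand), the ligand of CD30, had 1.17, 2.94 and 2.02 CPM in NOR against 0.0475, 0.0761 and 0.144 CPM in BALB/c LGs of 16 weeks. Its lowest NOR library was several times above the highest BALB/c library, with a log2 fold-change of 4.41 (SE 0.632, adjusted p = 2.08e-05). At 8 weeks the 3 NOR libraries together held 8 counts of Tnfsf8 against 0, at least 2.38-fold higher (adjusted p = 0.0493). That call was lost without BALB/c replicate 1, 2 or 3 (adjusted p = 0.0947, 0.104 and 0.119) or NOR replicate 1 (adjusted p = 0.236). It was lost as well with both changes of scaling (DESeq2 size factors, and TMM factors without the most abundant genes), with only the groups compared and with the replicate block. Tnfsf14 (chr17:57189492-57194186, minus strand), known as LIGHT, had 1.04, 1.53 and 0.957 CPM against 0.0475, 0 and 0.336 CPM at 16 weeks. NOR LGs lay above BALB/c LGs in all libraries, with a log2 fold-change of 3.02 (SE 0.593, adjusted p = 0.000429), and 5.03 without BALB/c replicate 3. The value at 8 weeks was 2.06 (adjusted p = 0.0637). The ligand with the highest level per length in BALB/c LGs of 16 weeks was Tnfsf12 (TWEAK), with 1.38 CPM per kb of exon, and its strain difference at 16 weeks was −0.23 (adjusted p = 0.396). Its exons share 57.7% of their bases with those of BC096441, and reads that overlapped both genes were not counted.

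The 19 receptors formed the largest class, with 18 tested. At 8 weeks 7 were upregulated and 0 downregulated, with a median log2 fold-change of 0.80, and at 16 weeks 7 were upregulated and 1 was downregulated, with a median of 0.71. Tnfrsf4, Tnfrsf9, Tnfrsf14, Tnfrsf18 and Tnfrsf26 entered the test through NOR libraries, so how many receptors were called was fixed in part by the filter. Tnfrsf1b (chr4:145212368-145246870, minus strand) encodes TNF receptor 2, the TNF receptor of leukocytes. In NOR LGs of 8 weeks it had 11.7, 6.82 and 6.93 CPM against 2.75, 2.31 and 3.61 CPM in BALB/c LGs (log2 fold-change 1.54, SE 0.278, adjusted p = 0.000332). At 16 weeks its levels were 16.9, 33.7 and 22.3 CPM against 3.28, 3.80 and 5.09 CPM. The groups did not overlap at either age, and the log2 fold-change at 16 weeks was 2.59 (SE 0.252, adjusted p = 1.31e-07). Tnfrsf1a, the broadly expressed TNF receptor 1, had 9.24 CPM per kb in BALB/c and 10.8 CPM per kb in NOR LGs of 16 weeks, a log2 fold-change of 0.22 (adjusted p = 0.0846).

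The receptors Tnfrsf4, Tnfrsf18 and Tnfrsf9, which costimulate T cells, were upregulated at 16 weeks, while Tnfrsf25, which also does, had 0.71 (adjusted p = 0.152). Tnfrsf4 (chr4:156013695-156016589, plus strand), or OX40, had 2.14, 5.49 and 3.61 CPM in NOR LGs of 16 weeks and 0.237, 0.228 and 0.240 CPM in BALB/c LGs. The BALB/c libraries were nearly alike and all far below NOR, with a log2 fold-change of 3.97 (SE 0.460, adjusted p = 1.02e-06). Tnfrsf4 had 1.33 at 8 weeks (adjusted p = 0.0681). Tnfrsf18 (chr4:156026342-156028891, plus strand), or GITR, lies near Tnfrsf4 on the same chromosome and had 3.04, 7.10 and 6.38 CPM against 0.570, 0.228 and 0.672 CPM at 16 weeks. NOR replicate 1 was the lowest of the NOR libraries for both genes, yet above all BALB/c libraries. The log2 fold-change of Tnfrsf18 was 3.40 (SE 0.406, adjusted p = 1.49e-06) at 16 weeks and 1.90 (SE 0.458, adjusted p = 0.00387) at 8 weeks. Tnfrsf9 encodes 4-1BB, a receptor induced on activated T cells. It had 1.59, 4.04 and 2.02 CPM in NOR LGs of 16 weeks and 0.0475, 0 and 0 CPM in BALB/c LGs, 145 counts against 1. The ratio was 161 (95% interval 28.5 to 6421, adjusted p = 1.65e-06), and at 8 weeks, with 27 counts against 2, it was 12 (3.02 to 104, adjusted p = 0.0102). Without NOR replicate 1 of 8 weeks, the adjusted p of Tnfrsf9 at that age was 0.0817.

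Tnfrsf14 (chr4:154922210-154928077, minus strand) encodes HVEM, a receptor of LIGHT. It had 0.938, 0.744 and 0.587 CPM in NOR against 0.0786, 0.0699 and 0.169 CPM in BALB/c LGs of 8 weeks (log2 fold-change 2.68, SE 0.572, adjusted p = 0.00148). At 16 weeks it had 2.55, 4.35 and 3.61 CPM against 0.142, 0.304 and 0.528 CPM. No NOR library overlapped the BALB/c libraries at either age, and the log2 fold-change at 16 weeks was 3.40 (SE 0.390, adjusted p = 9.05e-07). For Tnfrsf26 the log2 fold-change at 16 weeks was 2.81 (adjusted p = 5.01e-05). Its value of 1.72 at 8 weeks (adjusted p = 0.0493) was a call lost without BALB/c replicate 2 (1.39, adjusted p = 0.167), BALB/c replicate 3 (1.49, 0.162), NOR replicate 1 (1.16, 0.268) or NOR replicate 2 (1.77, 0.0765). It was lost under all the other alternatives that tested this gene too (DESeq2, both changes of scaling, no filter, only the groups compared and the replicate block). This gene is close in sequence to Tnfrsf22 and Tnfrsf23, and how reads of 50 bases divide among the 3 is uncertain.

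Tnfrsf12a (chr17:23675445-23677449, minus strand), the TWEAK receptor Fn14, had strain differences of opposite sign at 8 and 16 weeks. At 8 weeks it had 1.17, 1.36 and 0.587 CPM in NOR and 0.314, 0.140 and 0.338 CPM in BALB/c LGs (log2 fold-change 1.93, SE 0.527, adjusted p = 0.00967). At 16 weeks it had 0.621, 0.745 and 1.17 CPM in NOR and 1.38, 3.12 and 1.87 CPM in BALB/c LGs (log2 fold-change −1.35, SE 0.411, adjusted p = 0.0101). All 3 NOR libraries were above BALB/c at 8 weeks, and all 3 were below at 16 weeks. The BALB/c level rose between these ages by a log2 fold-change of 2.92 (SE 0.490, adjusted p = 0.00449), and the NOR level had a log2 fold-change of −0.36 (adjusted p = 0.553). The call at 8 weeks was lost without BALB/c replicate 2 (1.64, adjusted p = 0.0508), and that at 16 weeks without BALB/c replicate 2 (−1.0, 0.0665) or NOR replicate 2 (−1.26, 0.0506). Of its exon bases, 8.29% are shared with Hcfc1r1.

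Fas, the death receptor CD95, had 6.0, 7.33 and 5.74 CPM in NOR and 4.80, 4.57 and 4.95 CPM in BALB/c LGs of 16 weeks. The groups did not overlap, but the log2 fold-change of 0.43 (SE 0.141, adjusted p = 0.0165) was below the cutoff, and its adjusted p was 0.051 without BALB/c replicate 2 and 0.141 without NOR replicate 2. Fas had 0.15 at 8 weeks (adjusted p = 0.511). The receptor with the highest level per length in BALB/c LGs of 16 weeks was Ltbr, the lymphotoxin beta receptor of stromal and epithelial cells, with 9.97 CPM per kb against 8.45 CPM per kb in NOR. The groups overlapped, and the log2 fold-change was −0.26 (adjusted p = 0.0288), a p that passed 0.05 without BALB/c replicate 1 or 3 (0.099 and 0.0879) or NOR replicate 1 or 2 (0.0782 and 0.148), and with DESeq2, both changes of scaling and only the groups compared. Tnfrsf23 had 1.79, 1.57 and 1.91 CPM in NOR against 2.75, 3.96 and 2.16 CPM in BALB/c LGs of 16 weeks, lower in all NOR libraries, by −0.74 on the log2 scale (SE 0.263, adjusted p = 0.0239). It was −0.50 (adjusted p = 0.136) without BALB/c replicate 2 and −0.65 (0.107) without NOR replicate 2.

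**Figure D2:**
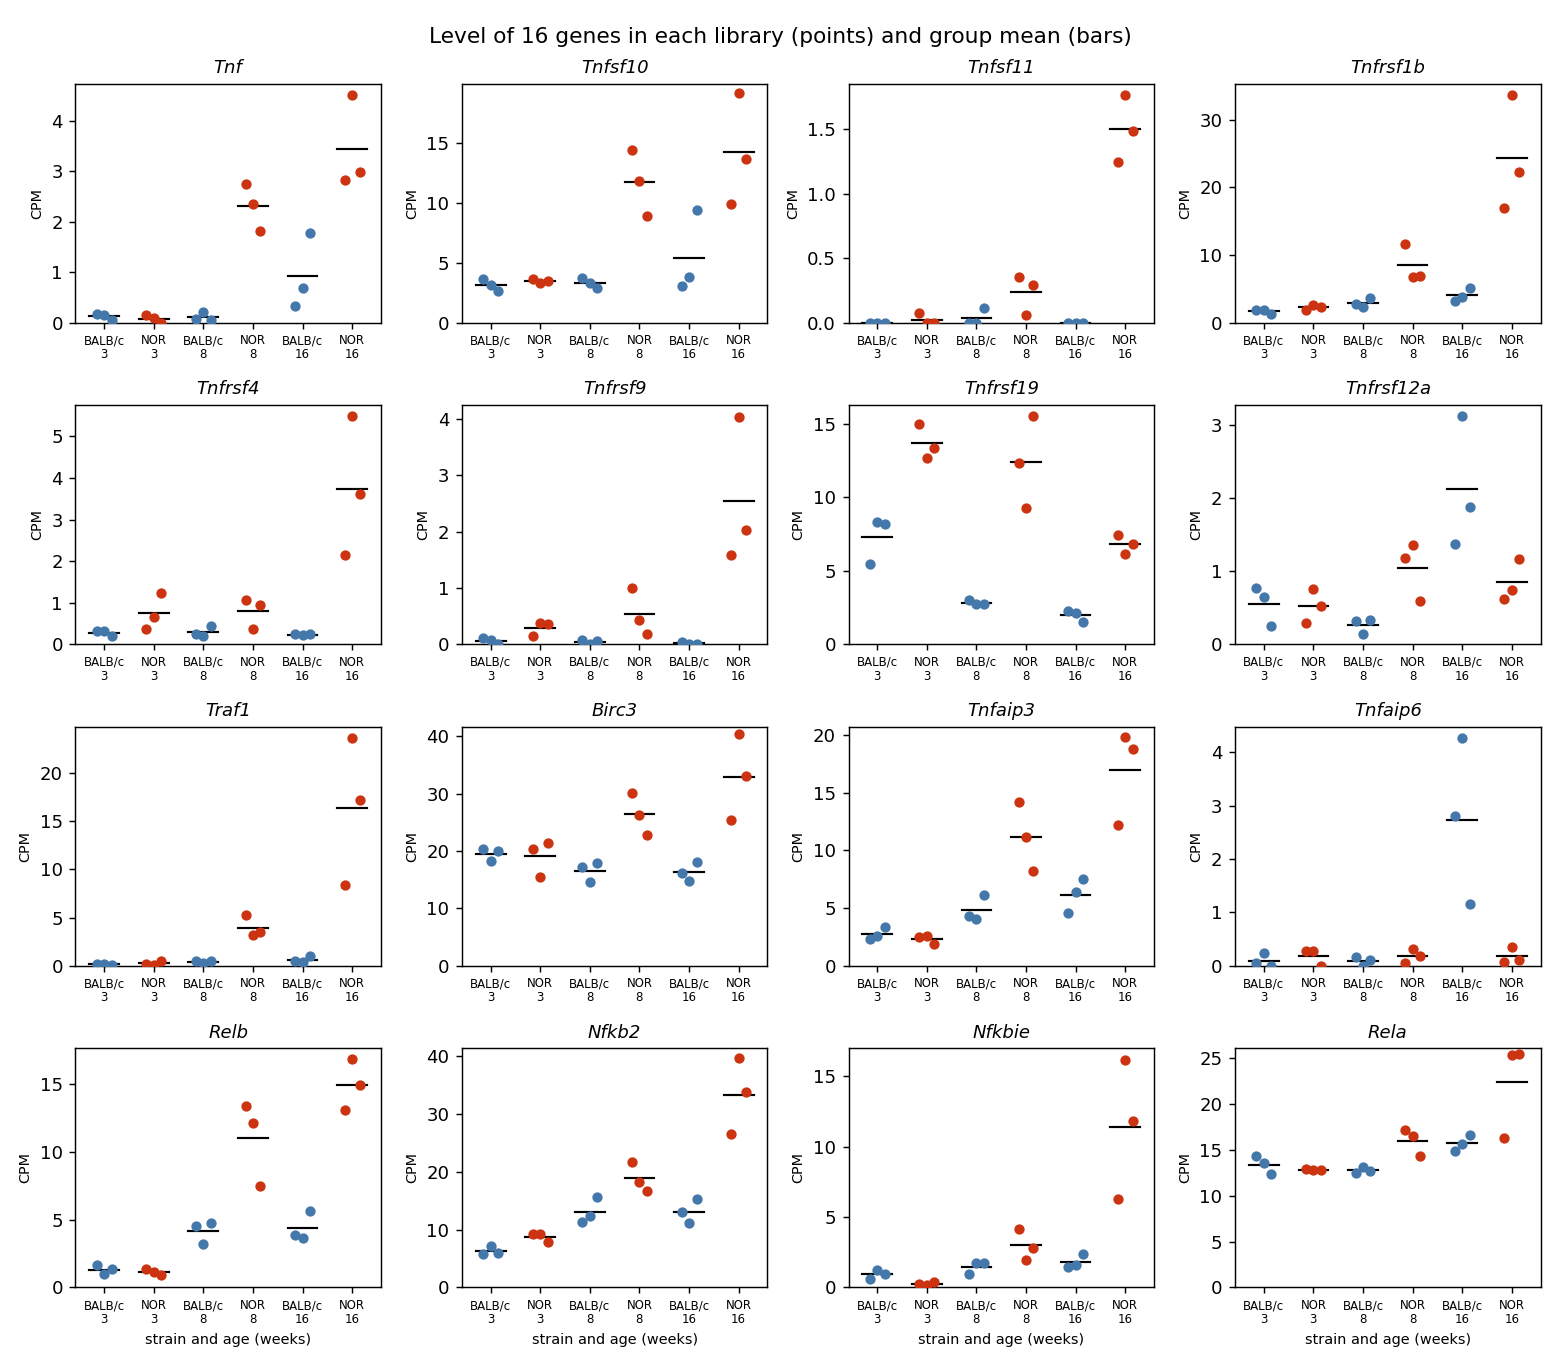
Level in each library and group mean of 16 ligand, receptor, adaptor and NF-kB genes in NOR and BALB/c LGs of 3, 8 and 16 weeks.

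All 9 genes of TRAF adaptors and cIAP ligases were tested. The median log2 fold-change of this class was 0.12 at 8 weeks and 0.34 at 16 weeks, with 1 gene upregulated at 8 weeks, 3 at 16 weeks and 0 downregulated. Traf1 (chr2:34943258-34961772, minus strand), an adaptor of TNF receptor 2 and of costimulatory receptors, had 5.22, 3.22 and 3.46 CPM in NOR and 0.472, 0.280 and 0.508 CPM in BALB/c LGs of 8 weeks. By 16 weeks its levels were 8.35, 23.6 and 17.2 CPM against 0.475, 0.380 and 1.01 CPM. Every NOR library was several times above every BALB/c library at both ages. The log2 fold-change was 3.21 (SE 0.465, adjusted p = 3.87e-05) at 8 weeks and 4.66 (SE 0.388, adjusted p = 2.28e-08) at 16 weeks, when Traf1 had the smallest p of all members. Traf5 (chr1:192054350-192092564, minus strand), another adaptor of costimulatory receptors, had 0.352, 0.806 and 0.470 CPM in NOR against 0.865, 0.280 and 0.451 CPM in BALB/c LGs of 8 weeks. These levels overlapped, and the log2 fold-change was 0.05 (adjusted p = 0.961). At 16 weeks Traf5 had 1.73, 4.67 and 2.23 CPM against 0.380, 0.685 and 0.432 CPM (log2 fold-change 2.61, SE 0.455, adjusted p = 9.88e-05). Birc3 (chr9:7848701-7873170, minus strand), which encodes cIAP2 and is itself induced by NF-kB, had 25.4, 40.4 and 33.2 CPM against 16.2, 14.8 and 18.1 CPM at 16 weeks. All NOR libraries were higher, by a log2 fold-change of 1.01 (SE 0.150, adjusted p = 1.82e-05). Since this lies at the cutoff, the call was lost without BALB/c replicate 2 (0.95) or NOR replicate 2 (0.82), with adjusted p of 0.000217 and 0.000171. At 8 weeks Birc3 had 0.67 (adjusted p = 0.0025).

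The rest of this class fell short of the fold-change cutoff. At 16 weeks Traf2 was higher by 0.47 on the log2 scale (adjusted p = 0.00294), Traf3 0.34 (0.00155), Traf7 0.26 (0.0137) and Traf6 −0.35 (0.00448). The adjusted p of Traf7 was 0.0608 without NOR replicate 2 and 0.0642 without NOR replicate 3, and it passed 0.05 with only the groups compared. Traf4 had −0.05 (adjusted p = 0.847) and Birc2, which encodes cIAP1, 0.11 (adjusted p = 0.311). Birc2 had the highest level per length of this class in BALB/c LGs of 16 weeks, 13.8 CPM per kb against 14.8 CPM per kb in NOR.

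Of 8 TNFAIP genes (those with a Tnfaip symbol), 7 were tested. At 8 weeks 3 were upregulated, and at 16 weeks 5 were upregulated and 1 was downregulated, with medians of 0.95 and 1.5. Tnfaip3 (chr10:19000910-19015410, minus strand) encodes A20, an enzyme that edits ubiquitin and limits NF-kB activation. It had 14.2, 11.2 and 8.22 CPM in NOR and 4.32, 4.05 and 6.09 CPM in BALB/c LGs of 8 weeks, and 12.2, 19.8 and 18.8 CPM against 4.56, 6.39 and 7.54 CPM at 16 weeks. The NOR libraries were above BALB/c at both ages, by log2 fold-changes of 1.2 (SE 0.234, adjusted p = 0.000665) and 1.46 (SE 0.222, adjusted p = 2.33e-05). Without NOR replicate 1, the value at 8 weeks was 0.99 (adjusted p = 0.00646), under the fold-change cutoff. Tnfaip8l2 (chr3:95139521-95142360, minus strand), or TIPE2, a regulator of immune cell activation, had 5.66, 10.7 and 6.91 CPM against 0.570, 0.685 and 0.961 CPM at 16 weeks. The lowest NOR value was well above the highest BALB/c value, with a log2 fold-change of 3.39 (SE 0.312, adjusted p = 7.01e-08). It was 1.94 at 8 weeks (SE 0.356, adjusted p = 0.000376). Its relative Tnfaip8 (chr18:49979427-50093229, plus strand) had 8.42, 20.7 and 14.2 CPM against 2.28, 1.98 and 2.74 CPM at 16 weeks. All NOR libraries were higher, by a log2 fold-change of 2.63 (SE 0.276, adjusted p = 3.18e-07). At 8 weeks it was 0.81 (adjusted p = 0.049), and the adjusted p passed 0.05 without BALB/c replicate 1, 2 or 3 (0.0652, 0.199 and 0.0646) or NOR replicate 1 or 2 (0.187 and 0.114), and also with DESeq2, both changes of scaling and the replicate block.

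Tnfaip2 (chr12:111442661-111455018, plus strand), a TNF-induced gene of myeloid and endothelial cells, had 5.45, 12 and 9.88 CPM in NOR LGs of 16 weeks and 2.28, 3.12 and 4.32 CPM in BALB/c LGs. The groups did not overlap, with a log2 fold-change of 1.5 (SE 0.262, adjusted p = 0.000102). At 8 weeks it was 1.01 (adjusted p = 0.0167), a call lost without BALB/c replicate 3 (0.82, adjusted p = 0.0923), NOR replicate 1 (0.99, 0.0459) or NOR replicate 2 (0.89, 0.0634). With DESeq2 and with both changes of scaling it also fell under the fold-change cutoff. Tnfaip8l1 had 0.759, 0.784 and 0.638 CPM in NOR and 0.427, 0.0761 and 0 CPM in BALB/c LGs of 16 weeks, with a log2 fold-change of 2.00 (SE 0.773, adjusted p = 0.0379). It was no longer called without BALB/c replicate 2 or 3 (adjusted p = 0.102 and 0.139) or NOR replicate 1, 2 or 3 (0.0557, 0.0989 and 0.0553), and it was 4.29 without BALB/c replicate 1. DESeq2 and a fit of only the groups compared did not call it either.

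Tnfaip6 (chr2:52038113-52056681, plus strand) encodes TSG-6, a secreted protein that binds hyaluronan and is made at sites of inflammation. In BALB/c LGs it had 2.80, 4.26 and 1.15 CPM at 16 weeks, while NOR LGs of that age had 0.0690, 0.353 and 0.106 CPM. Every NOR library was below every BALB/c library, with a log2 fold-change of −3.61 (SE 0.633, adjusted p = 0.000107). At 8 weeks the levels were 0.0586, 0.310 and 0.176 CPM in NOR and 0.157, 0 and 0.113 CPM in BALB/c LGs, and at 3 weeks they were 0.286, 0.285 and 0 CPM against 0.0547, 0.242 and 0 CPM. The BALB/c libraries of 16 weeks were thus the only ones above 1 CPM. From 8 to 16 weeks the BALB/c level rose by a log2 fold-change of 4.79 (SE 0.743, adjusted p = 0.00257; DESeq2 gave no adjusted p), and in NOR LGs it was 0.23 (adjusted p = 0.866). Tnfaip1 had the highest level per length of its class in BALB/c LGs of 16 weeks, 5.54 CPM per kb, and a log2 fold-change of 0.02 (adjusted p = 0.904).

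The kinases that phosphorylate IkB proteins included 0 DEGs of 3 between the strains at 8 and 16 weeks by edgeR. Chuk (IKK-alpha), the kinase of the noncanonical branch, had 30.0, 30.0 and 28.8 CPM in NOR and 45.8, 46.6 and 43.7 CPM in BALB/c LGs of 16 weeks. The NOR libraries were all lower, with a log2 fold-change of −0.61 (SE 0.0839, adjusted p = 7.37e-06). Per length, Chuk had the highest level of the class, 13 CPM per kb in BALB/c and 8.46 CPM per kb in NOR LGs. Ikbkb (IKK-beta), the kinase of the canonical branch, had a log2 fold-change of 0.28 (adjusted p = 0.0386) at 16 weeks with overlapping groups, and 0.13 (adjusted p = 0.357) without NOR replicate 2. Its adjusted p also passed 0.05 without BALB/c replicate 1 or 2 (0.0563 and 0.152) or NOR replicate 3 (0.0761), and with only the groups compared or the replicate block. Ikbke (IKK-epsilon), a kinase of interferon induction, had 11.5, 12 and 9.87 CPM in NOR against 14.1, 21.8 and 14.8 CPM in BALB/c LGs of 8 weeks. Its log2 fold-change was −0.61 (SE 0.162, adjusted p = 0.0081), and −0.38 (adjusted p = 0.0825) without BALB/c replicate 2. At 16 weeks it was −0.08 (adjusted p = 0.697).

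Of the 5 NF-kB subunits, 1 was upregulated at 8 weeks and 2 at 16 weeks, with medians of 0.33 and 0.52. Relb (chr7:19606222-19629438, minus strand) had 13.4, 12.1 and 7.46 CPM in NOR and 4.56, 3.22 and 4.74 CPM in BALB/c LGs of 8 weeks. By 16 weeks Relb had 13, 16.8 and 14.9 CPM against 3.89, 3.65 and 5.62 CPM. The groups did not overlap at either age. The log2 fold-change was 1.39 (SE 0.218, adjusted p = 8.47e-05) at 8 weeks and 1.75 (SE 0.211, adjusted p = 1.66e-06) at 16 weeks. Nfkb2 (chr19:46304737-46312090, plus strand), the partner of Relb in the noncanonical branch, had 26.5, 39.7 and 33.8 CPM in NOR against 13, 11.1 and 15.3 CPM in BALB/c LGs of 16 weeks. All NOR libraries were higher, by a log2 fold-change of 1.34 (SE 0.150, adjusted p = 6.69e-07). At 8 weeks Nfkb2 had 0.52 (adjusted p = 0.0162), which passed 0.05 without BALB/c replicate 1 or 2 (0.0809 and 0.0625) or NOR replicate 1 (0.095). Rela (chr19:5637490-5648130, plus strand), the main subunit of the canonical branch, had 16.3, 25.3 and 25.4 CPM in NOR and 14.9, 15.7 and 16.6 CPM in BALB/c LGs of 16 weeks. NOR replicate 1 fell within the BALB/c range and the other NOR libraries above it, with a log2 fold-change of 0.51 (SE 0.126, adjusted p = 0.00247). Nfkb1 had 0.52 (SE 0.109, adjusted p = 0.000603) and the highest level per length of the class, 8.08 CPM per kb in BALB/c and 11.5 CPM per kb in NOR LGs. Rel had −0.19 (adjusted p = 0.490).

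The 6 IkB and other Nfkb genes had a median log2 fold-change of 0.32 at 8 weeks and 0.81 at 16 weeks. By edgeR 0 of them were DEGs at 8 weeks, and 2 were upregulated at 16 weeks. Nfkbie (chr17:45555716-45563168, plus strand), which had been lower in all NOR libraries at 3 weeks, had 4.16, 1.98 and 2.82 CPM in NOR and 0.943, 1.75 and 1.75 CPM in BALB/c LGs of 8 weeks (log2 fold-change 0.99, adjusted p = 0.0509). By 16 weeks Nfkbie had 6.28, 16.2 and 11.8 CPM against 1.42, 1.6 and 2.35 CPM. The lowest NOR library was then well above the highest BALB/c library, with a log2 fold-change of 2.67 (SE 0.327, adjusted p = 2.06e-06). Nfkbid (chr7:30423304-30428746, plus strand) encodes IkB-NS, a nuclear IkB protein of lymphocytes and macrophages. It had 1.17, 0.124 and 0.881 CPM in NOR and 0.786, 0.629 and 0.564 CPM in BALB/c LGs of 8 weeks, with NOR replicate 2 the lowest of all. At 16 weeks it had 2.07, 4.63 and 4.89 CPM against 0.332, 0.457 and 0.576 CPM. The log2 fold-change was 0.17 (adjusted p = 0.857) at 8 weeks and 3.06 (SE 0.463, adjusted p = 2.24e-05) at 16 weeks. Nfkbia (chr12:55489409-55492647, minus strand), which encodes IkB-alpha, had the highest level per length of its class, 20.2 CPM per kb in BALB/c LGs of 16 weeks. Its levels were 50.2, 54.6 and 49.7 CPM in NOR and 28.4, 29.4 and 38.1 CPM in BALB/c LGs. The groups did not overlap, and the log2 fold-change was 0.69 (SE 0.121, adjusted p = 0.000105), after 0.47 (SE 0.122, adjusted p = 0.00716) at 8 weeks. Nfkbiz, a nuclear IkB protein, had 0.88 (adjusted p = 0.00112) at 8 weeks and 0.94 (adjusted p = 0.000128) at 16 weeks. Nfkbib and Nfkbil1 had 0.27 (adjusted p = 0.0515) and 0.41 (adjusted p = 0.101) at 16 weeks, and 15.9% of the exon bases of Nfkbib are shared with Gm6537.

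With age, NOR LGs of 8 weeks had 18 members upregulated relative to 3 weeks (8.88% of all genes tested) and 0 downregulated (3.27%), and DESeq2 also called 0 lower. The median log2 fold-change was 0.61 against 0.03 for all genes, and 34 members and 5804 of all genes had an unadjusted p under 0.05. The smallest p was that of Relb, which went from 1.36, 1.14 and 0.878 CPM to 13.4, 12.1 and 7.46 CPM (log2 fold-change 3.21, SE 0.285, adjusted p = 1.56e-07). Nfkbia went from 23.6, 18.2 and 19.3 CPM to 46.2, 46.3 and 36.5 CPM (log2 fold-change 1.07, SE 0.130, adjusted p = 5.65e-06), and 0.98 without NOR replicate 2 of 3 weeks. For both genes all libraries of 8 weeks were above those of 3 weeks. Tnfaip3 rose from 2.50, 2.57 and 1.93 CPM (log2 fold-change 2.22, SE 0.277, adjusted p = 7.57e-06), and Traf1 from 0.143, 0.0950 and 0.527 CPM (4.25, SE 0.600, adjusted p = 2.79e-05). Tnf had 116 counts in NOR LGs of 8 weeks and 3 at 3 weeks, a ratio of 23.3 (95% interval 7.77 to 114, adjusted p = 7.15e-05). The upregulated members comprised 3 ligands, 4 receptors, 1 TRAF gene, 4 TNFAIP genes, 1 kinase (Ikbke), 2 subunits and 3 IkB genes (Nfkbia, Nfkbiz and Nfkbie). Some of these calls were lost with 1 library left out. Without NOR replicate 1 of 8 weeks the adjusted p was 0.0707 for Tnfsf14, 0.0538 for Tnfrsf14, 0.057 for Tnfrsf18 and 0.0647 for Tnfrsf26, and Nfkb2, with 1.08, had 0.97. Of the 3-week NOR libraries, replicate 1 ended the calls of Tnfsf14 (0.129), Tnfrsf14 (0.0546) and Tnfrsf26 (0.0553), replicate 2 those of Tnfrsf14 (0.0812) and Tnfrsf26 (0.0636), and replicate 3 that of Tnfsf14 (0.0616), which DESeq2 did not call either. Nfkbie rose by 3.64 (SE 0.570, adjusted p = 7.62e-05) from its low level at 3 weeks.

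From 8 to 16 weeks, 18 members were upregulated in NOR LGs, against 8.88% of all genes tested, and 0 were downregulated, against 0.778%. DESeq2 called 0 lower as well, and 34 members and 6187 of all genes had an unadjusted p under 0.05. The median log2 fold-change was 0.46, and −0.01 for all genes. By role these were 3 ligands (Tnfsf8, Tnfsf11 and Tnfsf14), 8 receptors, Traf1 and Traf5, 3 TNFAIP genes, and Nfkbie and Nfkbid, with 0 kinases and 0 subunits called by edgeR. Tnfsf14 had 1.59, and its adjusted p passed 0.05 without NOR replicate 2 or 3 of 8 weeks (0.067 and 0.0833) or NOR replicate 2 of 16 weeks (0.138), and with DESeq2. Of the receptors, Tnfrsf11b was lost without NOR replicate 1 or 3 of 8 weeks (0.0574 and 0.0887) or NOR replicate 2 of 16 weeks (0.213), and Tnfrsf25 without the last (0.0501). Tnfaip8 had the smallest p, with levels of 5.22, 4.59 and 3.11 CPM at 8 weeks, all below those of 16 weeks, and a log2 fold-change of 1.76 (SE 0.260, adjusted p = 7.18e-05). Traf1 had 2.05 (SE 0.311, adjusted p = 9.46e-05), Tnfrsf1b 1.53 (SE 0.235, adjusted p = 0.000104) and Tnfsf8 3.65 (SE 0.586, adjusted p = 0.000216). Tnf had 0.60 (SE 0.371, adjusted p = 0.216) over this interval, Relb 0.45 (adjusted p = 0.0837), Nfkbia 0.26 (adjusted p = 0.0912), and Tnfaip3 0.60 (adjusted p = 0.0334). Each of these genes had a strain difference at 8 weeks. The NOR levels of 8 and 16 weeks overlapped for Relb and Tnfaip3 and did not overlap for Tnf and Nfkbia. Other members upregulated between the strains at 8 weeks were called higher in NOR LGs over this interval as well. Among them were Traf1, Tnfrsf1b, Tnfaip8l2, Tnfrsf9, Tnfrsf14 and Tnfrsf18.

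In BALB/c LGs, 4 members rose between 3 and 8 weeks (4.37% of all genes tested) and 2 fell (2.58%), with a median of 0.11 against 0.00 for all genes. Ikbke had 4.65, 5.08 and 5.89 CPM at 3 weeks, all below the levels of 8 weeks, with a log2 fold-change of 1.70 (SE 0.177, adjusted p = 7.79e-07). Relb had 1.64, 0.968 and 1.33 CPM at 3 weeks and a log2 fold-change of 1.63 (SE 0.277, adjusted p = 0.000192). Nfkb2 rose from 5.85, 7.18 and 6.01 CPM to 11.3, 12.4 and 15.6 CPM (log2 fold-change 1.07, adjusted p = 0.000111), and 0.91 without BALB/c replicate 3 of 8 weeks. Fas rose from 1.70, 2.18 and 1.84 CPM to 4.09, 3.42 and 4.06 CPM (log2 fold-change 1.03, adjusted p = 0.000107), which was 0.95 without BALB/c replicate 1 of 3 weeks and 0.99 without BALB/c replicate 1 or 3 of 8 weeks. The members that fell were Tnfrsf19, by a log2 fold-change of −1.36 (SE 0.210, adjusted p = 7.19e-05), and Tnfrsf21, by −1.28 (SE 0.120, adjusted p = 2.04e-07). Ikbke, Relb and Nfkb2 were thus called over these ages in both strains, Nfkb2 in NOR LGs with 1.08, or 0.97 without NOR replicate 1 of 8 weeks.

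Between 8 and 16 weeks, 3 members were upregulated in BALB/c LGs, where 0.426% of all genes tested were upregulated, and 0 were downregulated, against 0.0150%. DESeq2 called 0 lower, and 15 members and 2235 of all genes had an unadjusted p under 0.05. The median was 0.17, and 0.03 for all genes. The 3 genes were Tnfaip6 and Tnfrsf12a together with Tnf. The last had a log2 fold-change of 2.99 (SE 0.670, adjusted p = 0.0267), with all 3 libraries of 16 weeks above those of 8 weeks. The call of Tnf was lost without BALB/c replicate 1 or 3 of 8 weeks (2.84, adjusted p = 0.111, and 2.62, adjusted p = 0.162) or BALB/c replicate 3 of 16 weeks (2.02, adjusted p = 0.170), and with only the groups compared. Over the same interval, 7 of 15 immediate-early genes, which respond within minutes to a stimulus or to tissue handling, were upregulated in BALB/c LGs. Their summed level was 112, 110.2 and 114 CPM at 8 weeks and 243, 191 and 179 CPM at 16 weeks, with Dusp1 the most abundant gene. In NOR LGs it was 154, 141 and 119 CPM at 8 weeks and 154, 186 and 178 CPM at 16 weeks. Between the strains, 4 of the 15 were upregulated in NOR LGs at 8 weeks (Fos, Jun, Ier3 and Atf3) and 0 downregulated by edgeR. At 16 weeks 3 of the 15 were lower in NOR than in BALB/c LGs (Dusp1, −1.05, Fosb, −3.43, and Egr1, −2.09, adjusted p = 4.56e-05, 0.000134 and 0.000243) and 0 higher by edgeR, and the strain difference fell from 8 to 16 weeks for 5 and rose for 0. Of 11 clock genes, 7 were lower in NOR LGs at 16 weeks, with summed levels of 227, 192 and 236 CPM against 416, 499 and 464 CPM and Clock (−1.09, adjusted p = 3.75e-05) and then Tef (−1.35, adjusted p = 3.58e-08) the most abundant. From 8 to 16 weeks, 6 clock genes were downregulated and 2 upregulated in NOR LGs, and 4 immediate-early genes were upregulated. Over the same interval, the strain difference fell for 6 clock genes and rose for 1. None of these markers was at 0 in a group. The part of tissue handling and time of day in the levels of Tnfaip6, Tnfrsf12a and Tnf was not tested. Nor was it tested for the members called in NOR LGs from 8 to 16 weeks or for a changed strain difference.

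An interaction test asked whether the strain difference itself changed with age. From 3 to 16 weeks, it rose for 15 members (7.51% of all genes tested) and fell for 1 (3.15%), with a median change of 0.69 against −0.03 for all genes. Tnfaip8 had the smallest p, with a change of 3.37 on the log2 scale (SE 0.449, adjusted p = 8.28e-05). Nfkbie changed by 4.57 (SE 0.729, adjusted p = 0.000341), with fitted values below BALB/c at 3 weeks and above it at 16 weeks. Its difference at 3 weeks was not called by edgeR and rested on counts of 3, 2 and 2 in NOR against 11, 15 and 15 in BALB/c LGs. From 8 to 16 weeks, the strain difference rose for 5 members (2.03% of all genes tested) and fell for 2 (0.807%), with a median of 0.25 against −0.04. Those that rose were Tnfaip8 by 1.82 (adjusted p = 0.0138), Nfkbid by 2.90 (0.0213), Traf5 by 2.56 (0.0394), Tnfrsf4 by 2.64 (0.0407) and Nfkbie by 1.68 (0.0451). The members whose strain difference fell were Tnfrsf12a, with −3.28 (SE 0.668, adjusted p = 0.00863), and Tnfaip6, with −4.55 (SE 1.31, adjusted p = 0.0396). For Tnf, the change from 8 to 16 weeks was −2.40 (SE 0.791, adjusted p = 0.0669). The count of 7 members was between 3 and 5 when BALB/c replicate 1, 2 or 3 of 8 weeks, BALB/c replicate 1, 2 or 3 of 16 weeks, NOR replicate 2 or 3 of 8 weeks or NOR replicate 2 or 3 of 16 weeks was left out. The calls of Tnfaip8 and Tnfrsf12a held under every setting that tested them (a mean CPM of at least 1 left Tnfrsf12a untested), and those of the other 5 were lost in at least 1. With 1 library left out, the adjusted p reached 0.141 for Traf5 (BALB/c replicate 1 of 8 weeks), 0.143 for Nfkbie (NOR replicate 2 of 16 weeks), 0.162 for Tnfaip6 (NOR replicate 2 of 8 weeks), 0.182 for Tnfrsf4 (BALB/c replicate 3 of 8 weeks) and 0.0583 for Nfkbid (NOR replicate 2 of 16 weeks). A fit of only the groups compared ended the calls of Traf5, Nfkbie, Tnfaip6 and Tnfrsf4, the replicate block those of Nfkbie and Tnfrsf4, and DESeq2 gave no adjusted p for Traf5 and Tnfaip6. The count was 9 without NOR replicate 1 of 8 weeks and 11 without NOR replicate 1 of 16 weeks. The comparisons of a group with 2 others share its libraries, so the values at 8 and 16 weeks are not independent of the changes with age.

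Other genes of the pathway were read from lists of symbols. The ligands that the symbol rule misses are Lta, Ltb, Eda, Cd40lg, Cd70 and Fasl, of which 3 were tested. At 8 and at 16 weeks 2 of the 3 were upregulated in NOR LGs, with medians of 3.23 and 5.02. Of all genes tested, 8.93% and 14.1% were upregulated at these ages. Lta and Ltb entered the test through NOR libraries, so how many of the 3 were called was fixed in part by the filter. Ltb, the membrane anchor of lymphotoxin, had 13, 32.9 and 21 CPM in NOR and 0.427, 0.380 and 1.15 CPM in BALB/c LGs of 16 weeks. Its log2 fold-change was 5.02 (SE 0.457, adjusted p = 6.08e-08), with all NOR libraries far higher. Lta, the soluble lymphotoxin chain, had 1.45, 3.61 and 3.08 CPM against 0, 0 and 0.192 CPM (log2 fold-change 5.10, SE 0.668, adjusted p = 4.57e-06). Among the untested ligands, Cd40lg had 53 counts in NOR LGs of 16 weeks against 2, a ratio of 29.5 (95% interval 7.78 to 250), and Fasl 37 against 1, a ratio of 41.2 (6.95 to 1671). NOR replicate 2 held 42 of these counts of Cd40lg and 23 of Fasl, and BALB/c replicate 3 held all of the BALB/c counts of both. Of 6 receptors outside the rule, 3 were upregulated at 8 weeks and 4 at 16 weeks, with medians of 1.29 and 1.88. At 16 weeks these were Relt (3.62, adjusted p = 1.66e-06), Cd27 (2.45, 3.7e-06), Cd40 (4.62, 1.15e-05) and Ngfr (1.31, 0.0152). Relt, Cd40 and Ngfr entered the test through NOR libraries too. Cd40, the receptor of B cells and antigen-presenting cells, had 4.62, 14.4 and 9.03 CPM in NOR against 0.0475, 0.152 and 0.864 CPM in BALB/c LGs.

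Of 31 adaptors, kinases and ubiquitin enzymes of the pathway, 1 was upregulated in NOR LGs at 3 weeks, 7 at 8 weeks and 8 at 16 weeks, and 0 were downregulated by edgeR. Their median log2 fold-change was 0.19 at 8 weeks and 0.31 at 16 weeks. Tnip1, a ubiquitin-binding partner of A20, had 20.1, 25.6 and 19.98 CPM in NOR and 4.70, 4.26 and 5.33 CPM in BALB/c LGs of 16 weeks. It was upregulated at 3, 8 and 16 weeks, with log2 fold-changes of 1.00, 1.49 and 2.20, the last with a SE of 0.157 and an adjusted p of 4.13e-09. Map3k14 (NIK), the kinase that starts the noncanonical branch, had 7.38, 13 and 12.2 CPM against 2.14, 2.36 and 2.55 CPM. NOR LGs were above BALB/c LGs in all 3 libraries for both genes, and Map3k14 had a log2 fold-change of 2.21 (SE 0.221, adjusted p = 1.78e-07). Casp8, the protease of death receptors, had 1.07 (SE 0.142, adjusted p = 5.23e-06).

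Of 24 textbook NF-kB target genes outside the symbol rule, 19 were tested. In NOR LGs, 1 was upregulated at 3 weeks, 11 at 8 weeks with 1 downregulated, and 9 at 16 weeks with 0 downregulated by edgeR, with medians of 1.86 at 8 weeks and 1.22 at 16 weeks. The chemokine gene Cxcl9 had 15.2, 45.1 and 29.0 CPM in NOR and 0.142, 0.0761 and 0.336 CPM in BALB/c LGs of 16 weeks (log2 fold-change 7.18, SE 0.604, adjusted p = 2.44e-08). Ccl5 had 4.24 (adjusted p = 6.53e-08), Cfb 2.36 (2.59e-07) and Ccl20 5.03 (2.74e-07). Cfb, a complement gene, was the target upregulated at 3 weeks, by 2.06. Of 7 lymphoid tissue genes linked to lymphotoxin signalling, 4 were tested and all 4 were upregulated at 16 weeks, after 3 at 8 weeks, with medians of 5.87 and 2.83. Cxcl13, the most abundant of them and an attractant of B cells, had 19.4, 42.4 and 28.5 CPM in NOR and 2.33, 1.83 and 4.71 CPM in BALB/c LGs (log2 fold-change 3.32, SE 0.368, adjusted p = 6.31e-07). Cr2 and Glycam1 had 5.97 and 5.77 (adjusted p = 3.01e-07 and 1.02e-05), with BALB/c counts of 1, 0 and 17 and of 0, 0 and 8, nearly all in replicate 3. Ccl19, with 296 counts against 3, all 3 in that BALB/c library, had a ratio of 109.9 (95% interval 37.2 to 536, adjusted p = 3.84e-07). Cr2, Glycam1 and Ccl19 entered the test through NOR libraries, so how many of those tested were called was fixed in part by the filter. The symbol Fdcsp of this list was not found in the table of counts.

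Markers of leukocytes moved with these genes. All 6 T cell markers tested were upregulated in NOR LGs at 8 and at 16 weeks. Their summed level was 26.5, 10.2 and 12.4 CPM in NOR and 1.02, 0.559 and 0.620 CPM in BALB/c LGs of 8 weeks, and 55.1, 134 and 89.4 CPM against 0.997, 1.07 and 1.82 CPM at 16 weeks, with Cd4 the most abundant. All 5 B cell markers were upregulated at both ages as well, with 19.8, 6.57 and 10.7 CPM against 0.236, 0.349 and 0.733 CPM at 8 weeks and 117, 387 and 237 CPM against 0.760, 0.457 and 5.19 CPM at 16 weeks. At 3 weeks 2 T cell and 2 B cell markers were at 0 counts in each strain, and at 16 weeks 0 were. T and B cell markers passed the filter through NOR libraries, so how many of those tested were called was fixed in part by the filter. Of 5 macrophage markers, 4 were upregulated at 8 weeks and 5 at 16 weeks, when their sum was 204, 327 and 249.8 CPM against 61.9, 57.4 and 77.6 CPM, with C1qb the most abundant in NOR LGs. At 8 weeks the sum was 199, 143 and 129 CPM against 56.4, 44.0 and 62.7 CPM.

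At 16 weeks 4 of 5 dendritic cell markers were upregulated (23.1, 47.9 and 33.6 CPM against 5.03, 4.57 and 6.10 CPM, Itgax the most abundant), as were 4 of 4 NK cell markers (8.63, 15.6 and 9.67 CPM against 0.712, 0.685 and 1.34 CPM, Gzma the most abundant in NOR). Of 5 plasma cell markers 3 were upregulated, with sums of 796, 833 and 899.6 CPM against 541, 495 and 485 CPM. The most abundant were Igj in NOR LGs (375, 498 and 488 CPM against 71.9, 31.7 and 57.0 CPM) and Xbp1, which secretory epithelium expresses too, in BALB/c LGs (387, 293 and 367 CPM in NOR against 447, 444 and 405 CPM). Neutrophil markers summed to 0.621, 0.980 and 0.531 CPM in NOR and 0.285, 0.304 and 2.55 CPM in BALB/c LGs, S100a9 the most abundant, and 0 of 4 were tested. Mast cell markers had 0 DEGs of 4 at 16 weeks by edgeR and a median of −0.58. Without the fold-change cutoff, 2 were lower, Cpa3 (−0.84, adjusted p = 0.0025) and Mcpt4 (−0.69, 0.0359), and 1 was higher, Kit, the most abundant, at 18.7, 25.1 and 25.4 CPM against 9.83, 9.74 and 17.6 CPM. NOR replicate 2 had the highest level of T cell, B cell, macrophage and dendritic cell markers and of Tnfrsf1b, Tnfrsf9, Traf1 and Nfkbie, and NOR replicate 1 the lowest. Not all members had this order. Nfkbid, Rela and Tnfrsf12a were highest in NOR replicate 3, and Tnfsf14 and Nfkbia were lowest there. The part of leukocyte number in the levels of TNF superfamily and NF-kB genes was not tested.

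Lists of gland, stromal and other tissue cells were read in the same way. Of 6 markers of lacrimal gland epithelium, 1 was downregulated in NOR LGs of 16 weeks, Car6, the most abundant one in BALB/c LGs, which had 395, 488 and 350.0 CPM against 1732, 1928 and 1605 CPM (log2 fold-change −2.09, SE 0.180, adjusted p = 3.14e-08). Their sum was 2502, 1894 and 2038 CPM in NOR and 4053, 4005 and 3755 CPM in BALB/c LGs. Without the fold-change cutoff, 3 of the 6 were lower and 0 higher. The median of the 6 was −0.15, and 0 of them were at 0 counts in a group. Of 4 endothelial markers 1, Pecam1, was upregulated (1.44, adjusted p = 6.04e-06), which leukocytes also express. By edgeR, 0 of 4 myoepithelial and 0 of 4 fibroblast markers were DEGs at 16 weeks, with medians of 0.39 and 0.07. Of 5 parotid gland markers 0 were DEGs at 16 weeks by edgeR, with a median of −0.48, while 1 was upregulated at 3 weeks. At 8 weeks 1 was downregulated, Smr2, with 0 counts in NOR against 164 in BALB/c LGs. Smr2 did not follow Bpifa2 across libraries. The NOR libraries of 3 weeks had 0 counts of Smr2 beside 698, 423817 and 239534 of Bpifa2. Of 5 skeletal muscle markers 2 were downregulated at 16 weeks (Ckm, −3.18, and Acta1, −3.44), with sums of 18.3, 12 and 3.08 CPM against 27.4, 107 and 168 CPM. Of 4 fat markers 2 were upregulated at 16 weeks (Plin1, 1.35, and Cfd, 1.16), with Fabp4 the most abundant. The symbols Trac and Ly6g were not found in the table.

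**Figure D3:**
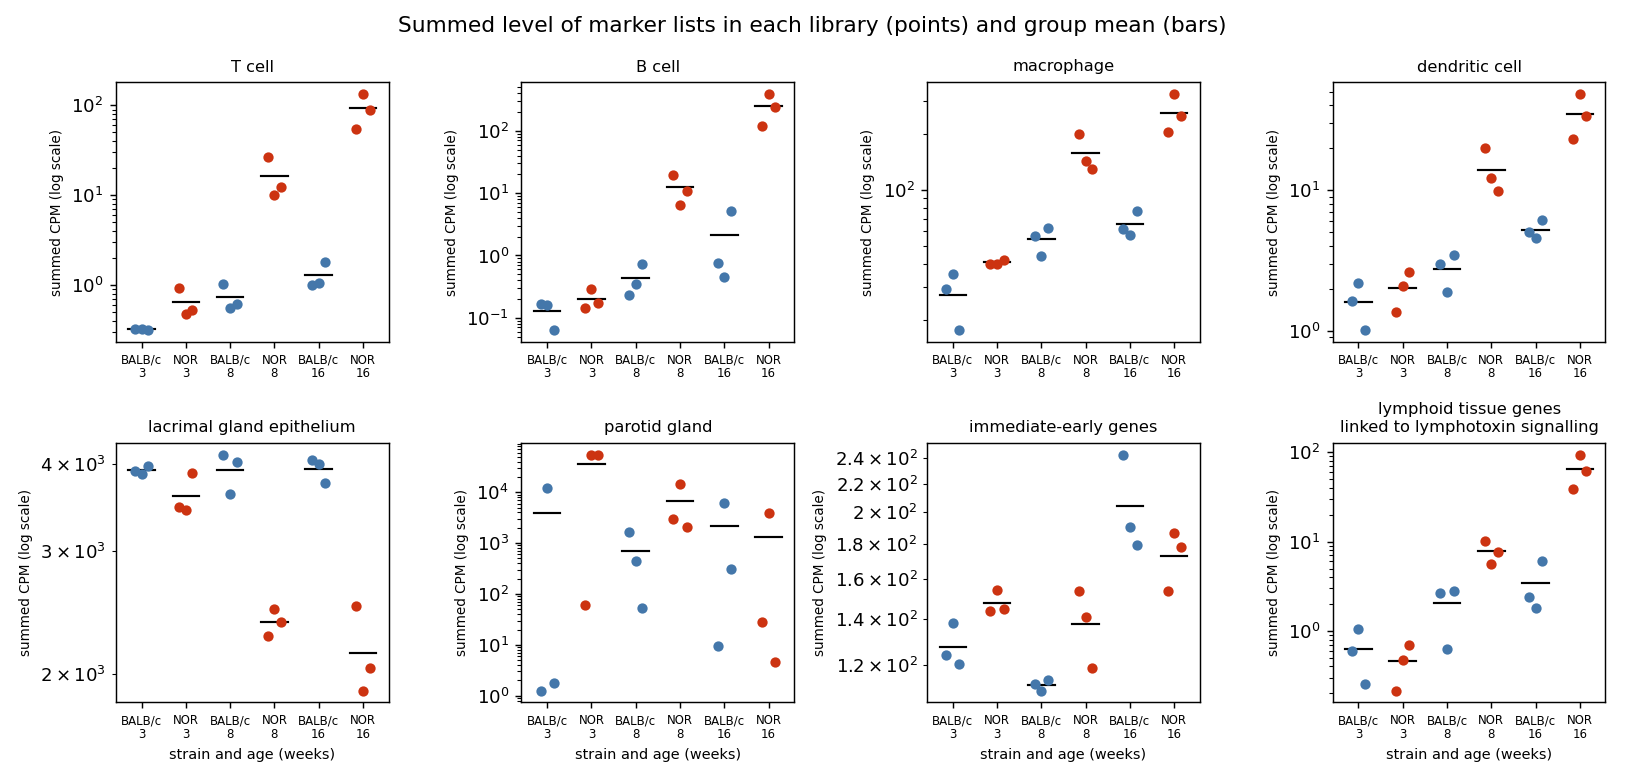
Summed level of 8 marker lists in each library and group mean, on a log scale, in NOR and BALB/c LGs of 3, 8 and 16 weeks.

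The promoters of the members were searched for the kappaB decamer consensus on both strands. The windows were those of RefSeq promoters, up to 300 bases each, in build GRCm38.p6. A gene may have several, and 48 of the 60 members were matched to at least 1 by symbol. The motif was found for 12 of 48 members (25.0%), against 2581 of 27018 genes with a window (9.55%). This background was not limited to the genes tested, and the difference between the shares was not tested. Among members upregulated at 16 weeks it was found for 7 of 21 (33.3%), and among the others for 5 of 27 (18.5%). Tnf, Traf1, Tnfrsf1b, Tnfrsf4, Tnfsf8, Tnfsf11 and Birc3 were among the members upregulated at 16 weeks whose windows held 0 matches. Rel, Traf3, Tnfrsf25, Tnfrsf8 and Nfkbia, not called at that age, held the motif. Of all windows, 8.46% held it. A match describes the letters of the window only. Windows were not found for Ikbkb, Nfkb1, Nfkbiz, Relb, Tnfaip8, Tnfrsf10b, Tnfrsf11b, Tnfrsf22, Tnfrsf26, Tnfsf12, Tnfsf4 and Tnfsf9. The windows printed are those of 1 noncanonical subunit, 3 IkB genes, A20 and 4-1BB, genes with a called rise in NOR LGs between strains or ages. For each of them 1 window that held the motif was chosen, and capitals mark the motif. They are Nfkb2 (chr19:46304487-46304786, plus strand), Nfkbia (chr12:55492598-55492897, minus strand), Nfkbid (chr7:30422156-30422455, plus strand), Nfkbie (chr17:45555450-45555749, plus strand), Tnfaip3 (chr10:19015361-19015660, minus strand) and Tnfrsf9 (chr4:150927749-150928048, plus strand), each written 5′ to 3′ on the strand of its gene.
Nfkb2: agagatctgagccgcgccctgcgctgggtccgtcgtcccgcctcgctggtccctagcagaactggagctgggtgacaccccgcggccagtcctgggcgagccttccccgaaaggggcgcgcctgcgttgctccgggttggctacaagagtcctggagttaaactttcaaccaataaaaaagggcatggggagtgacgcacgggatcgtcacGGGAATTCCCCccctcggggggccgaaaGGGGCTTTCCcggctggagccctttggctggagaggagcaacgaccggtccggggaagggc
Nfkbia: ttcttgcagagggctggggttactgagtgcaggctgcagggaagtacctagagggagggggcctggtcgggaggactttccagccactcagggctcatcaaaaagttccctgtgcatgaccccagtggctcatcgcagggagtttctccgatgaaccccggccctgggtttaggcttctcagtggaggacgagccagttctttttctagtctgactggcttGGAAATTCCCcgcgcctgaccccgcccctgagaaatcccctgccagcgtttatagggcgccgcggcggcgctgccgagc
Nfkbid: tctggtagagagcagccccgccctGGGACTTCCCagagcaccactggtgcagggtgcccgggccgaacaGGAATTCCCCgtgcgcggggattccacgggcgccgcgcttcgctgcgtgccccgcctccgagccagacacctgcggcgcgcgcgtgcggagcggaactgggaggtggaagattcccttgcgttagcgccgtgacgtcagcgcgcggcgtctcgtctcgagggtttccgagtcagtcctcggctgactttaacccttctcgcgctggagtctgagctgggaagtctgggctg
Nfkbie: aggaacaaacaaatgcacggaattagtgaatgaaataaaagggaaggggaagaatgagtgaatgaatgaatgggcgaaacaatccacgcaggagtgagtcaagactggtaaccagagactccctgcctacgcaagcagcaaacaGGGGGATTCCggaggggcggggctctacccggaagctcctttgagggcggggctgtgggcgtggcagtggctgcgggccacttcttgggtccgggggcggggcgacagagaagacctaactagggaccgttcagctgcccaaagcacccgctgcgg
Tnfaip3: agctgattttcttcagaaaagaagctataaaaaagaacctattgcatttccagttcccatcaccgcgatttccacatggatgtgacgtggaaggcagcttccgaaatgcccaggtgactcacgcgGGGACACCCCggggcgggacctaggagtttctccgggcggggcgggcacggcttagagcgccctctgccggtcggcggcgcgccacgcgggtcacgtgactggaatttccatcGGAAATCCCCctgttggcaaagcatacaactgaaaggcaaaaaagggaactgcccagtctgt
Tnfrsf9: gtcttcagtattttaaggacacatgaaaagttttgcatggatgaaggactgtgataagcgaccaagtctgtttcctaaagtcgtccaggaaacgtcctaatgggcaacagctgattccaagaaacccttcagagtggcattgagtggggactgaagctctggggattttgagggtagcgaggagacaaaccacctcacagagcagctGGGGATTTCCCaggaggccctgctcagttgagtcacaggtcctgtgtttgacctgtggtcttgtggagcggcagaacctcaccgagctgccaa
In Nfkb2 the matches were GGGAATTCCC, GGAATTCCCC and GGGGCTTTCC, and the first 2 overlap; its other 2 windows, not printed, held GGAATGTCCC and GGGACTTTCC. In Nfkbia the match was GGAAATTCCC, in Nfkbie GGGGGATTCC, and in Nfkbid GGGACTTCCC and GGAATTCCCC. Tnfaip3 held GGGACACCCC and GGAAATCCCC, and Tnfrsf9 the overlapping GGGGATTTCC and GGGATTTCCC. The other windows of Nfkbid, Tnfaip3 and Tnfrsf9 held 0 matches.

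The 6 members that were not tested did not pass the low-count filter. Their counts are given here for NOR against BALB/c LGs. Tnfsf4, the OX40 ligand, had 0, 7 and 1 counts against 0, 0 and 1 at 16 weeks, so NOR replicate 2 held nearly all of them, too few to show a difference beyond that library. Tnfsf15, or TL1A, had 15 counts against 0 at 8 weeks, at least 4.46-fold higher. Its counts at 16 weeks were 7, 28 and 7 in NOR and 3, 2 and 3 in BALB/c libraries. Tnfsf9, the 4-1BB ligand, had 7, 24 and 5 counts against 3, 0 and 4 counts at 16 weeks. Tnfrsf8 (CD30) had 1, 3 and 2 counts against 0 at 16 weeks, at least 2.23-fold higher. Tnfsf18, the GITR ligand, had 4 counts against 2 at 16 weeks, and Tnfaip8l3 had 0 to 1 counts in each of the 18 libraries, too few to show a difference at this depth.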

How the data were processed

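RNA of male exorbital LGs was sequenced by the authors as single reads of 50 bases from stranded mRNA libraries. The command line kept in the table of counts shows that the authors counted reads on the exons of each gene of mm10 with featureCounts 1.6.2 (raw counts), with no strand option and without reads that map or assign to several genes. The deposited table also gives each gene's exon length in bases (a unit other than counts), used here for CPM per kb. The version of the aligner HISAT2 was not stated.

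Counts were scaled by TMM (factors 0.815 to 1.44), filtered by filterByExpr (minimum count 10, minimum total 15) and tested in edgeR 4.0.16 (R 4.3.3) by 1 quasi-likelihood fit of 18 libraries with 1 mean per group and no covariate. The biological coefficient of variation was 13.8%. Contrasts were NOR against BALB/c at each age, neighbouring ages in 1 strain, and, as an interaction, how far the strain difference shifted with age. Libraries of a group differed beyond counting noise. The procedure was also tried on simulated data, and no value given here rests on that trial. Tables and figures used Python 3.11.15 and matplotlib 3.10.9.

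The members and lists were chosen with earlier results of these data known. Genes named in full were, in each role, up to 4 DEGs with the smallest p at 16 weeks, members lower in NOR LGs, and Tnf, Tnfaip3, Nfkbia, Rela and Fas. Then came the highest level per length in each role, members of counts of 5 or fewer, untested members, and up to 4 genes per list. Other members given with values, among them Tnfrsf1a, Traf4 and Nfkbib, and the promoters printed were chosen after their values were seen. Lists covered ligands, receptors, adaptors and targets outside the rule, lymphoid genes, cell types, immediate-early genes and clock genes; 2 listed genes are not reported here by themselves. Alternatives were DESeq2 1.42.0, its size factors, TMM without the 20 most abundant genes, no filter, a mean CPM of at least 1, only the groups compared, the replicate block, each library left out, and no fold-change cutoff. Pathway scores and histology of the study were not used here.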

Additional observations from a re-analysis of the deposited data

Results flagged for a closer look

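For 16 members, the difference between NOR and BALB/c LGs changed from 3 to 16 weeks, and for 7 from 8 to 16 weeks, by the interaction test of the difference itself in edgeR (adjusted p no higher than 0.05, and a log2 change of 1 or more in either direction). From 3 to 16 weeks the log2 strain difference changed by 4.57 for Nfkbie, 4.26 for Traf1, 4.24 for Tnfrsf26, 4.12 for Nfkbid, 3.88 for Tnfrsf14, 3.37 for Tnfaip8, 2.76 for Tnfrsf4 and 2.68 for Traf5. It changed by 2.32 for Tnfaip8l2, 2.16 for Tnfrsf1b, 1.94 for Relb, 1.90 for Tnfaip2, 1.66 for Tnfaip3, 1.2 for Nfkbiz, 1.06 for Birc3 and −4.91 for Tnfaip6. From 8 to 16 weeks the change was 2.90 for Nfkbid, 2.64 for Tnfrsf4, 2.56 for Traf5, 1.82 for Tnfaip8, 1.68 for Nfkbie, −3.28 for Tnfrsf12a and −4.55 for Tnfaip6. Leaving out 1 library ended 7 of the 16 calls from 3 to 16 weeks. For Traf1 these were BALB/c replicate 1 or 2 and NOR replicate 1 of 3 weeks (adjusted p = 0.0769, 0.0923 and 0.0519), for Tnfrsf4 BALB/c and NOR replicate 1 of 3 weeks (0.0673 and 0.0546), for Tnfaip6 NOR replicate 1 or 2 of 3 weeks (0.0997 and 0.0578), and for Tnfaip8l2 BALB/c replicate 2 of 3 weeks (0.0865). For Traf5 they were BALB/c replicate 1 or 2 and NOR replicate 1 of 3 weeks (0.0935, 0.0581 and 0.106) and BALB/c replicate 1 or 3 and NOR replicate 2 of 16 weeks (0.0661, 0.051 and 0.0894). The change was under the log2 cutoff for Nfkbiz without NOR replicate 2 of 16 weeks (0.99), and for Birc3 without NOR replicate 2 of 3 weeks (0.92) or BALB/c or NOR replicate 2 of 16 weeks (0.997 and 0.87). From 8 to 16 weeks, leaving out 1 library ended 5 of the 7 calls, with an adjusted p of up to 0.0583 for Nfkbid (NOR replicate 2 of 16 weeks), 0.182 for Tnfrsf4 (BALB/c replicate 3 of 8 weeks), 0.141 for Traf5 (BALB/c replicate 1 of 8 weeks), 0.143 for Nfkbie (NOR replicate 2 of 16 weeks) and 0.162 for Tnfaip6 (NOR replicate 2 of 8 weeks).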

How the results depend on the processing

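Of 133 values of a named member in a comparison that passed the test, 89 kept their direction and their side of the threshold under every alternative that tested them, 44 fell short in at least 1, and 0 reversed. At 16 weeks 23 of the 26 calls between the strains were kept in all that tested them, at 8 weeks 9 of 15. A mean CPM of at least 1 left some untested, at 16 weeks Tnfsf8, Tnfsf11, Tnfsf14, Tnfrsf9, Tnfrsf14, Tnfrsf26, Traf5 and Tnfaip6 among the 23, and at 8 weeks Tnfrsf14 among the 9.

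With DESeq2 or with only the groups compared, 1 member was called at 3 weeks in place of 0. With a mean CPM of at least 1, which tests fewer genes, 16 members were called between the strains at 16 weeks, 9 in NOR from 8 to 16 weeks, 1 in BALB/c from 8 to 16 weeks, and 4 for a changed strain difference from 8 to 16 weeks. With only the groups compared, which uses fewer libraries, the last count was 3. Without a fold-change cutoff, a wider rule by construction, the counts were 3 at 3 weeks, 40 at 16 weeks, 30 in NOR from 3 to 8 weeks, 31 in NOR from 8 to 16 weeks, 13 in BALB/c from 3 to 8 weeks and 26 for a changed strain difference from 3 to 16 weeks. Of all 13376 genes, 2423 were then higher and 2097 lower in NOR from 3 to 8 weeks, and 2474 and 2460 from 8 to 16 weeks. In BALB/c from 3 to 8 weeks 1844 were higher and 1892 lower, so the share of members there was no higher than that of all genes. The strain difference rose for 1576 and fell for 1749 of all genes from 3 to 16 weeks. For the counts with DESeq2, the cause was not tested.

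With 1 library left out at a time, the counts ran from 0 to 1 at 3 weeks, 11 to 16 at 8 weeks, 23 to 26 at 16 weeks, 13 to 20 in NOR from 3 to 8 weeks, 15 to 18 in NOR from 8 to 16 weeks, 4 to 7 in BALB/c from 3 to 8 weeks, 2 to 3 in BALB/c from 8 to 16 weeks, 12 to 19 for a changed strain difference from 3 to 16 weeks and 3 to 11 for that from 8 to 16 weeks.

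With the replicate block, the counts were 0, 14 and 26 at 3, 8 and 16 weeks, 18 and 18 in NOR, 6 and 3 in BALB/c, and 16 and 5 for a changed strain difference. The replicate numbers are different mice; at 8 weeks 3 of 3 NOR libraries correlated best with the BALB/c library of their own number.

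Depth limits the members with few counts: in the BALB/c libraries of 16 weeks 3 counts are 0.142, 0.228 and 0.144 CPM, and Tnfsf8, Tnfsf11 and Tnfrsf9 had no more than 3 counts in any of them.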
